A study of Mus musculus with 7 samples.

Results

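Mertk, Axl, Gas6, Stab1, Cd36, Lrp1, Abca1 and Msr1 encode receptors, a bridging ligand and a cholesterol exporter that phagocytes use in efferocytosis, the uptake of dying cells. They were taken by gene symbol, and all 8 were found among the 27514 genes that carried the same identifier in all 7 single-cell matrices. They are described in monocytes and macrophages of the mouse heart, in the steady state and on days 1, 3, 5 and 7 after myocardial infarction, and beside the other leukocyte classes.

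Infarcts were made in C57BL6/J mice by tying off the left descendant coronary artery for good, and the mice were labelled male for the heart experiments. Of the CD45+ leukocyte libraries, 1 came from 5 hearts without infarct (steady state), 1 each from 5 hearts on days 1, 3 and 5, and 1 from 3 hearts on day 7. Sorted cells were viable and had not been reached by a CD45.2 antibody given into the blood, and neutrophils had been partly removed beforehand. A separate pool, here the CD11b+ pool, held CD11b+ heart cells of day 1 (5 mice), day 3 (5 mice) and day 5 (3 mice), each day marked with its own hashtag and stained with 10 surface antibodies, among them MSR1. A further pool of CD11b+ cells from blood and heart came from mice of 8 to 10 weeks without surgery, after sham surgery, or 1 or 3 days after infarction. No label tied its 7 hashtags to these groups, so its groups were not compared, and its levels are given by hashtag only. The age of the other mice is not given in the sources used here. Since the hearts of a day shared 1 library or 1 hashtag, the spread between single mice could not be seen, and the 2 experiments differ in 10x chemistry (version 2 for CD45+, version 3 for the CD11b+ pool) and in sort.

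Expression is given as CPM, the UMIs of a gene in the summed cells of a class scaled to the same total in every sum. The monocyte/macrophage-like clusters, named from marker genes that included no member, held 246 to 715 cells per CD45+ library and 228 to 1353 per day of the CD11b+ pool. Their sums held 2335112 to 7094426 UMIs in the CD45+ libraries and 5328082 to 42441748 in the CD11b+ pool. At least 21 of 22 monocyte/macrophage markers were detected in every sum, Lyve1 being at 0 on day 1 of the CD11b+ pool. Together they summed to 55353 CPM in the steady state, 13083, 28830, 55992 and 55924 CPM on days 1, 3, 5 and 7 of the CD45+ libraries, and 22401, 29307 and 41068 CPM on days 1, 3 and 5 of the pool. The level of neutrophil markers in these sums moved with the day, and which cells it came from was not tested. The 15 neutrophil markers summed to 159 CPM in the steady state, 19063, 1852, 481 and 368 CPM on days 1, 3, 5 and 7 of the CD45+ libraries, and 2253, 765 and 638 CPM on days 1, 3 and 5 of the CD11b+ pool. The CD45+ day 1 sum stands apart: its neutrophil markers (S100a8 alone at 12485 CPM) summed to more than its monocyte/macrophage markers, against the name of its class. At most 2 cell barcodes were shared by any pair of CD45+ libraries.

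A cell that dies by apoptosis turns phosphatidylserine outward. Macrophages bind it directly, through receptors such as stabilin-1, or through bridging proteins such as GAS6, which couples it to the receptor tyrosine kinases MERTK and AXL. CD36, LRP1 and the scavenger receptor MSR1 bind further ligands on dying cells or on modified lipoproteins, and ABCA1 exports the cholesterol that the meal brings in. In the infarcted heart the main cargo is thought to be dying cardiomyocytes and spent neutrophils.

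Abca1 is a textbook target of the liver X receptors (LXR), nuclear receptors for oxidised cholesterol, and Mertk has also been described as LXR-dependent. Their upstream sequences are shown because the 2 genes differ in the LXR-type motif, a direct repeat of a half-site spaced by 4 bases. The motif searched was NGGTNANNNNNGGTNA on either strand in the 250 bases before each RefSeq start (GRCm38.p6). Of the 8 members, 7 had a promoter entry (Msr1 had none), and the motif was found in 1 of them, Abca1, beside 204 of all 32851 promoters (0.621%). Capitals mark the match, which begins 67 bases before the start and reads as the motif on the opposite strand to the gene. Both are written 5′ to 3′ on the strand of the gene, Abca1 from chr4:53159896-53160145 (minus strand) and Mertk from chr2:128698665-128698914 (plus strand).
Abca1: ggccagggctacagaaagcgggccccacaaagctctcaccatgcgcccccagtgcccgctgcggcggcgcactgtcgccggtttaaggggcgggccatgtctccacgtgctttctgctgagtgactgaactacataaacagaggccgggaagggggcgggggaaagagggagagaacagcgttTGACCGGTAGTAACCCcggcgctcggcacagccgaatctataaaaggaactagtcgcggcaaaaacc
Mertk: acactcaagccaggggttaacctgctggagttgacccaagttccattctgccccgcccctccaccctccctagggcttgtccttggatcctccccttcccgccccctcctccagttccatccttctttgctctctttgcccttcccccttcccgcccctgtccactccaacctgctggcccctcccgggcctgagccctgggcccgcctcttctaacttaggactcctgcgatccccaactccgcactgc
A match describes letters only, and no binding was measured.

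The time course of the 8 genes followed 3 patterns. Gas6, Axl, Mertk, Stab1 and Cd36 were highest in the steady state among the CD45+ libraries and lower on every day after infarction. Msr1 ran the other way, lowest in the steady state and highest on day 1. Lrp1 and Abca1 were highest on day 7 among the CD45+ libraries, though Lrp1 was nearly as high on days 3 and 5. Between days 1 and 5, the only span that both experiments share, Gas6 and Stab1 rose and Msr1 fell past the threshold of the test. The other 5 members did not pass. The test takes out the difference in level between the experiments. It weighs a change against how far they disagree on it, an estimate drawn partly from the other genes.

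**Figure D1:**
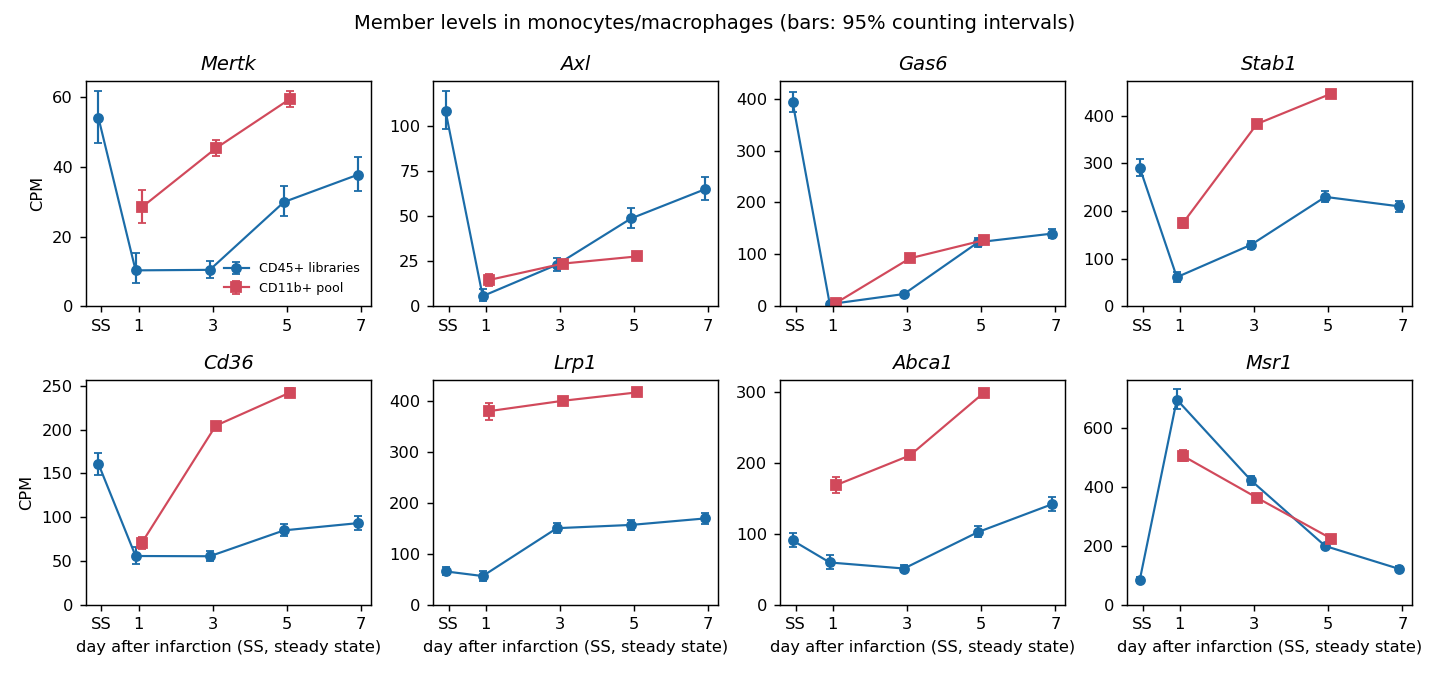
CPM of each member (vertical axis, linear from 0) in the monocytes/macrophages of the CD45+ libraries (blue circles) and the CD11b+ pool (red squares) against day after infarction, SS being the steady state; bars are exact Poisson 95% intervals, which cover counting error only. Gas6 stands at 393 CPM in the steady state and at 3.85 CPM on day 1, Msr1 at 83.5 and 695 CPM.

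Days 1, 3 and 5 were compared with edgeR's quasi-likelihood test on the 6 sums, with the experiment as a term and Benjamini-Hochberg adjustment across the 10568 genes that entered the fit. All 8 members passed the filter on low counts. The fit scaled the sums by TMM, a trimmed mean over genes, whereas CPM and the ratios within an experiment are scaled by total counts. A fitted change can therefore lie outside the ratios of the 2 experiments. From day 1 to day 5 the median log2 change of all genes was −0.0154 with TMM and 0.226 with total counts only. From day 1 to day 5 the test called 1066 genes (10.1%), of which 456 rose (4.31%) and 610 fell (5.77%), and 3 of the 8 members. From day 1 to day 3 it called 100 genes (0.946%) and no member, 1841 genes and 3 members having an unadjusted p under 0.05. From day 3 to day 5 it called no gene (0%), 798 genes and 5 members having an unadjusted p under 0.05. DESeq2 called 493 genes and 2 members (Gas6 and Stab1) for day 3 against 1. It called 1579 genes and 5 members for day 5 against 1, and 106 genes and 0 members for day 5 against 3. The median log2 change of the 8 members was 0.49, 1.00 and 0.58 in the order day 3 against 1, day 5 against 1 and day 5 against 3, beside −0.00, −0.02 and −0.01 over all genes. Without the experiment term edgeR called no gene in any of the 3 comparisons; DESeq2 was not run without it.

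**Figure D2:**
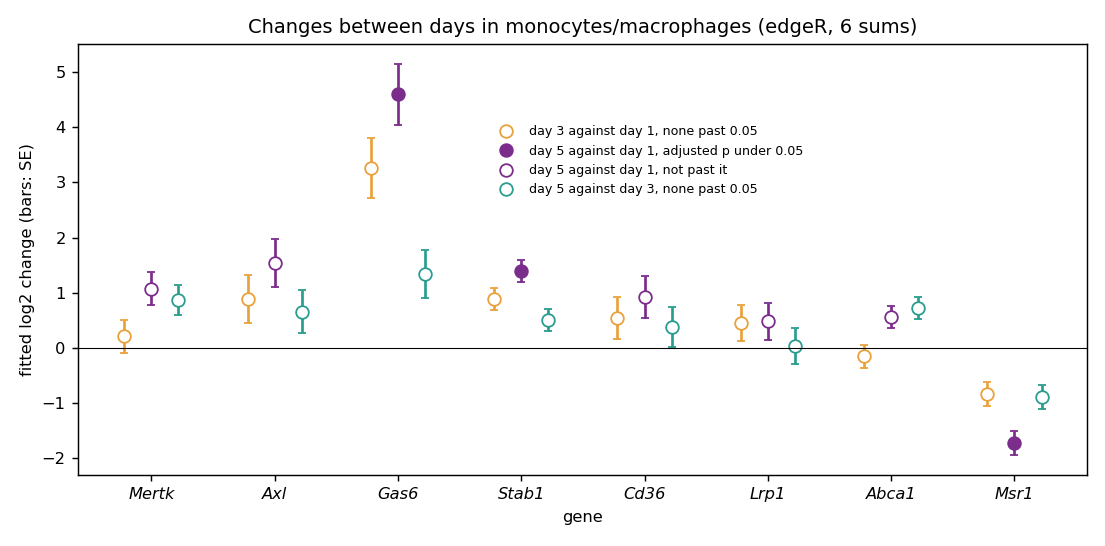
Fitted log2 change (vertical axis) of each member between days in monocytes/macrophages, from 6 sums, with bars of 1 SE; filled points passed the adjusted p of 0.05. Gas6 (4.60), Stab1 (1.39) and Msr1 (−1.73) passed between days 1 and 5, and no member passed in the other 2 comparisons.

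Gas6 encodes the vitamin K-dependent ligand that bridges phosphatidylserine to MERTK and AXL (ENSMUSG00000031451, chromosome 8, 13465374 to 13494490, minus strand, GRCm38, protein coding). In the CD45+ libraries its level was 393 CPM in the steady state and then 3.85, 23.4, 123 and 140 CPM on days 1, 3, 5 and 7. In the CD11b+ pool it was 5.82, 92.3 and 127 CPM on days 1, 3 and 5. Day 1 was thus the lowest in both experiments, and both day 5 sums lay above both day 3 sums. The day 1 sum of the CD45+ libraries held only 9 Gas6 UMIs, a level 102-fold below the steady state (95% counting interval of the log2 ratio −7.81 to −5.75), with 1 library on each side and therefore no test. The day 1 levels were close to those of neutrophils, which had 0 Gas6 UMIs in the CD45+ day 1 library (a limit of 3.45 CPM for 3 counts) and 4.45 CPM on day 1 of the pool. Every ratio to day 1 rests on these low levels. From day 1 to day 5 Gas6 rose by 4.60 ± 0.56 (SE) on the log2 scale, 24.3-fold (edgeR quasi-likelihood, adjusted p = 0.0106), and in each of the 6 fits that left out 1 sum it stayed called. The rise was 32.0-fold within the CD45+ libraries and 21.9-fold within the CD11b+ pool. Day 7 remained 2.81-fold below the steady state (log2 ratio −1.49, counting interval −1.61 to −1.37).

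The step from day 1 to day 3 differed in size between the experiments, 6.07-fold in the CD45+ libraries and 15.9-fold in the CD11b+ pool. The fitted change of 3.26 ± 0.55 missed the threshold (edgeR, adjusted p = 0.0671). Over the fits that left out 1 sum, the change ran from 2.16 without day 3 of the CD11b+ pool to 3.913 without CD45+ day 3. Such a fit has 1 residual degree of freedom, so a call gained in it is not read as support, here or for the other members.

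AXL and MERTK are the receptors for GAS6. Axl (ENSMUSG00000002602, chromosome 7, 25757273 to 25788705, minus strand, protein coding) stood at 108 CPM in the steady state and at 5.57, 22.98, 48.6 and 64.9 CPM on days 1, 3, 5 and 7. In the CD11b+ pool its levels on days 1, 3 and 5 were 14.4, 23.6 and 27.6 CPM. In both experiments Axl was lowest on day 1 and highest on day 5 of the shared days, with a ratio of day 5 to day 1 of 8.73-fold in the CD45+ libraries and 1.91-fold in the CD11b+ pool. The fitted change of 1.54 ± 0.44 did not pass (edgeR, adjusted p = 0.0779). With 1 sum left out it ran from 0.978 (without CD45+ day 1) to 2.63 (without day 1 of the CD11b+ pool). The change from day 1 to day 3 (0.89, edgeR adjusted p = 0.357) was 0.396 without CD45+ day 1 and 2.065 without day 1 of the pool.

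Mertk (ENSMUSG00000014361, chromosome 2, 128698956 to 128802894, plus strand, protein coding) was at 54.1 CPM in the steady state, and at 10.3, 10.4, 29.9 and 37.8 CPM on days 1, 3, 5 and 7. The CD11b+ pool gave 28.3, 45.3 and 59.5 CPM on days 1, 3 and 5. Day 3 of the CD45+ libraries was as low as day 1, while the pool was already higher on day 3, and day 5 was the highest of the 3 shared days in both. The ratio of day 5 to day 1 was 2.91-fold and 2.10-fold in the 2 experiments. Its fitted value of 1.07 ± 0.30 did not pass (edgeR, adjusted p = 0.0759). With 1 sum left out it ran from 0.764 (without CD45+ day 5) to 1.49 (without day 5 of the CD11b+ pool). Against the steady state, Mertk was 5.26-fold lower on day 1 and 1.43-fold lower on day 7, Axl 19.4-fold and 1.67-fold.

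Stab1 encodes stabilin-1, a large receptor that binds phosphatidylserine directly and takes up oxidised lipoprotein (ENSMUSG00000042286, chromosome 14, 31139013 to 31168641, minus strand, protein coding). Its CD45+ levels were 291 CPM in the steady state and 60.8, 129, 229 and 209 CPM on days 1, 3, 5 and 7. They were 174, 382 and 446 CPM on days 1, 3 and 5 of the CD11b+ pool. The order day 1, day 3, day 5 was the same in both experiments, at a higher level throughout in the pool. Stab1 rose by 1.39 ± 0.20 from day 1 to day 5, 2.62-fold (edgeR, adjusted p = 0.0162), by 3.77-fold within the CD45+ libraries and 2.56-fold within the pool. Without CD45+ day 5 this call was lost (1.18, edgeR adjusted p = 0.0565). The change from day 1 to day 3, 0.88 ± 0.20, missed the threshold (edgeR, adjusted p = 0.113). With 1 sum left out it ran from 0.713 (without day 3 of the pool) to 1.065 (without CD45+ day 3).

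Msr1 encodes scavenger receptor A, which binds modified lipoproteins, bacterial products and apoptotic cells (ENSMUSG00000025044, chromosome 8, 39581685 to 39642673, minus strand, protein coding). From 83.5 CPM in the steady state it stood at 695, 421, 199 and 121 CPM on days 1, 3, 5 and 7. The CD11b+ pool gave 504, 362 and 224 CPM on days 1, 3 and 5. Both day 1 sums lay above both day 3 sums, and those above both day 5 sums. Msr1 fell by 1.73 ± 0.22 on the log2 scale from day 1 to day 5, 3.32-fold (edgeR, adjusted p = 0.0118), and stayed called in all 6 fits that left out 1 sum. Day 1 was 8.32-fold above the steady state (log2 ratio 3.06, counting interval 2.88 to 3.23), with 1 library on each side and no test. By day 7 the ratio to the steady state was 1.45-fold. Its change from day 1 to day 3 (−0.84 ± 0.21) did not pass (edgeR, adjusted p = 0.144). With 1 sum left out it ran from −1.072 (without day 1 of the pool) to −0.508 (without CD45+ day 1).

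CD36 takes up oxidised lipids and fatty acids and binds thrombospondin-1, which bridges it to dying cells. Cd36 (ENSMUSG00000002944, chromosome 5, 17781690 to 17888801, minus strand, protein coding) was at 161 CPM in the steady state and at 55.7, 55.4, 84.9 and 93.2 CPM on days 1, 3, 5 and 7. Its CD11b+ pool levels were 70.2, 204 and 242 CPM on days 1, 3 and 5. The experiments were close on day 1 and apart on day 3: the pool was 2.91-fold higher than on day 1 and the CD45+ libraries level (0.995-fold). The fitted change from day 1 to day 5, 0.92 ± 0.39, did not pass (edgeR, adjusted p = 0.164). Without the CD45+ day 1 sum it was 1.73, and without day 1 of the pool 0.231. The change from day 1 to day 3 (0.54, edgeR adjusted p = 0.499) was 1.33 without the CD45+ day 1 sum. It turned to −0.16 without day 1 of the pool.

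LRP1 is a large endocytic receptor that recognises calreticulin on dying cells. Lrp1 (ENSMUSG00000040249, chromosome 10, 127538161 to 127621148, minus strand, protein coding) was at 65.7 CPM in the steady state and 56.5, 151, 157 and 170 CPM on days 1, 3, 5 and 7. The CD11b+ pool held 381, 401 and 418 CPM on days 1, 3 and 5. In the CD45+ libraries day 7 was not set apart from day 5 (log2 ratio 0.113, counting interval −0.012 to 0.238). The steady state and day 1 were low in the CD45+ libraries, whereas every day of the pool lay above every CD45+ library. Chemistry, sort and experiment cannot be told apart in that gap. From day 1 to day 5 the ratio was 2.78-fold in the CD45+ libraries and 1.10-fold in the pool, and the fitted change of 0.48 ± 0.33 did not pass (edgeR, adjusted p = 0.364). Without CD45+ day 1 it was −0.01, and without day 1 of the pool 1.19. The same holds from day 1 to day 3, where 0.44 (edgeR, adjusted p = 0.514) became −0.06 and 1.16.

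Abca1 (ENSMUSG00000015243, chromosome 4, 53030787 to 53159895, minus strand, protein coding), the gene with the motif shown above, stood at 90.5 CPM in the steady state and 59.5, 51.0, 102 and 142 CPM on days 1, 3, 5 and 7. Days 1, 3 and 5 of the CD11b+ pool gave 168, 210 and 299 CPM. Day 5 was the highest of the shared days in both, while day 3 was the lowest in the CD45+ libraries and not in the pool. From day 1 to day 5 the ratio was 1.72-fold and 1.78-fold in the 2 experiments. The fitted change of 0.56 ± 0.20, 1.47-fold on the TMM scale and so below both ratios, did not pass (edgeR, adjusted p = 0.126). With 1 sum left out it ran from 0.375 (without day 1 of the pool) to 0.80 (without CD45+ day 1). The fitted change from day 1 to day 3, −0.16, turned to 0.07 when sums were scaled by total counts, an alternative that shifted the median of all genes by 0.22. Day 7 was 1.57-fold above the steady state (log2 ratio 0.65, counting interval 0.47 to 0.83).

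Between days 3 and 5 the fitted changes ran from −0.90 (Msr1) to 1.35 (Gas6), with edgeR adjusted p-values of 0.417 to 0.998. Over the fits that left out 1 sum, the change ran from 0.537 to 2.276 for Gas6 and from −1.209 to −0.571 for Msr1. Cd36 and Lrp1 changed sign in some of them. Leaving out a day 1 sum takes no value of days 3 and 5 away, only a residual degree of freedom. Calls gained that way therefore say nothing further about this comparison.

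Markers of other cells moved along with these levels. The summed neutrophil markers, given above, were highest on day 1 in both experiments, where Gas6, Axl and Stab1 were lowest and Msr1 highest. The sum of the 5 platelet markers did likewise, at 590.5 CPM on CD45+ day 1 and 262.9 CPM on day 1 of the pool. It was at most 84.6 CPM elsewhere. Ppbp made up nearly all of it (590.5 and 262.8 CPM), and is also a leading gene of a monocyte/macrophage cluster of the pool. At CD45+ day 1 Itga2b, Gp9, Gp1bb and Tubb1 were at 0, and on day 1 of the pool Gp9, Gp1bb and Tubb1. Platelets as such are therefore not shown. The 5 cardiomyocyte markers summed to 239 CPM in the steady state, where Gas6, Axl, Mertk, Stab1 and Cd36 were highest among the CD45+ libraries, and to 8.99, 6.77, 40.5 and 16.1 CPM on days 1, 3, 5 and 7. On day 7, where Lrp1 and Abca1 were highest, B cell markers summed to 294.9 CPM and mast cell and basophil markers to 148 CPM, against at most 32.1 and 5.69 CPM in the other sums. Markers of the monocyte state moved too: Plac8, a gene of young monocytes, was at 32.3 CPM in the steady state, 523, 2038, 910 and 405 CPM on days 1, 3, 5 and 7, and 1038, 598 and 109 CPM in the pool. C1qa, a complement gene of mature macrophages, went from 6660 CPM to 241, 1072, 3079 and 4217 CPM, and through 637, 1649 and 2762 CPM in the pool. Lyve1, a marker of resident macrophages, was at 304 CPM in the steady state and between 2.68 and 49.1 CPM in the later CD45+ libraries. The part of these shifts in the members' changes was not tested, and in such sums fewer cells of a type and less RNA per cell cannot be told apart.

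Levels within single clusters of monocytes/macrophages show where the transcripts sit. Clusters were built from all other genes, and their values are a description. In the CD45+ libraries cluster 0, led by Hspa1a, Mgl2, Cbr2, Folr2 and Cd81, held 507 of the 524 steady state cells. Cluster 14 (Saa3, Cxcl3, Arg1) held 204 of the 246 day 1 cells, cluster 11 (Plac8, Chil3) 384 of the 622 day 3 cells, and cluster 6 (Ms4a7, Gpnmb) 498 of 715 on day 5 and 411 of 565 on day 7. Different clusters therefore carry the sums of different days.

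Gas6 was at 410 CPM in cluster 0, 116 in cluster 6, 4.92 in cluster 11 and 0 in cluster 14. Within cluster 0 it was at 406 CPM in the steady state and 407 CPM on day 7, while the whole class stood 2.81-fold lower on day 7. Cluster 6 held 63.7, 147 and 110 CPM of Gas6 on days 3, 5 and 7, and 18.7, 36.3 and 38.1 CPM of Mertk. Axl stood at 96.8, 55.6, 27.6 and 0 CPM in clusters 0, 6, 11 and 14, the same order as Gas6 over these 4. Msr1 stood at 704 CPM in cluster 14. Inside cluster 6 it went from 431 CPM on day 3 to 177 on day 5 and 94.0 on day 7, and inside cluster 11 from 444 to 282 and 208 CPM, so the lower level on later days was seen within both clusters. A small cluster of 36 cells led by Mt2, Cxcl10 and Rsad2, genes of metal and interferon responses, held 106 CPM of Axl, 57.2 of Mertk, 119 of Gas6 and 290 of Cd36, with 576 CPM of Msr1. Its 26 Axl UMIs give an interval of 69.4 to 156 CPM, which includes the level of cluster 0.

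In the CD11b+ pool Gas6 and Mertk were highest in cluster 7, led by Selenop, Apoe and Ms4a7, at 254 and 96.2 CPM. Of its 319 cells, 294 were from day 5. The same cluster held the most Stab1 (553 CPM) and Abca1 (441 CPM) and the least Msr1 (115 CPM) of the 8 clusters. The Fabp5, Gpnmb and Lpl cluster held the most Cd36 (373 CPM), and the Pf4 and Ccl7 cluster the most Lrp1 (486 CPM). Cluster 6, led by Saa3, Ccl24 and Arg1, combined 568 CPM of Msr1 with 387 CPM of Abca1 and 8.17 CPM of Axl. Axl was highest, at 93.3 CPM, in the interferon-type cluster led by Ms4a4c, Rsad2 and Cxcl10, and next, at 41.0 CPM, in the monocyte cluster led by Plac8 and Chil3, where Gas6 (13.7 CPM) and Mertk (20.7 CPM) were low. Mertk thus was highest in the same cluster of the pool as Gas6, and Axl in another. Msr1 was lower on day 5 than on day 3 in each of the 6 clusters with at least 30 cells on both days. In the Plac8 and Chil3 cluster it read 377, 305 and 231 CPM on days 1, 3 and 5, and Axl 24.8, 27.0 and 73.0 CPM.

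**Figure D3:**
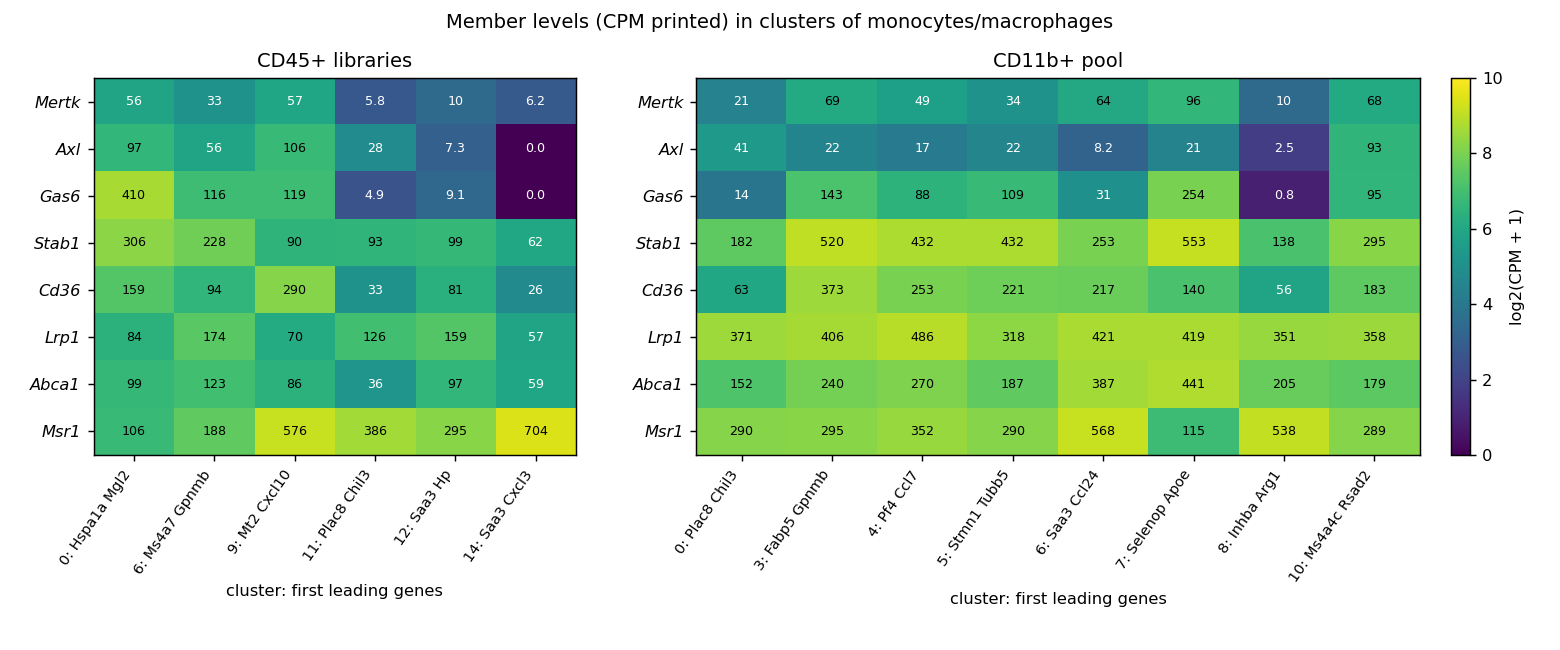
Heat maps of log2(CPM + 1), with CPM printed in each cell, of the 8 members (rows) in the clusters of monocytes/macrophages (columns, with their first leading genes) of the CD45+ libraries and the CD11b+ pool. In the pool the Selenop and Apoe cluster is high for Gas6 (254 CPM) and low for Msr1 (115 CPM), and Axl peaks in the Ms4a4c and Rsad2 cluster (93.3 CPM).

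Against the other leukocyte classes, Mertk, Cd36, Lrp1 and Msr1 were highest in monocytes/macrophages in all 14 libraries or hashtags that held another named class. That pattern was shared by 782 of 10342 genes with a mean of at least 5 CPM (7.56%). In 11 of the 14, neutrophils were the only other named class. Axl was highest there in 12, Gas6 and Abca1 in 10 and Stab1 in 9. Some of these counts rest on few UMIs: 1, 1 and 6 of Gas6 in hashtags 2, 6 and 7 and 3 of Mertk in hashtag 2, each beside 0 in neutrophils and each below the neutrophil limit of 3 counts. Classes were made by clustering the same cells, so no test is given.

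Neutrophils of the CD11b+ pool had 1.07 to 3.95 CPM of Mertk, 0.741 to 2.15 of Axl, 12.3 to 13.9 of Cd36 and 11.6 to 19.3 of Msr1 on the 3 days. They also had 4.45 to 7.51 CPM of Gas6, 27.6 to 56.9 of Stab1 and 32.9 to 67.6 of Lrp1. In the CD45+ libraries of days 1, 3 and 5, neutrophils had 0 UMIs of Mertk and of Axl, where the limits set by a count of 0 (3 counts of the total) were 3.45, 7.08 and 28.8 CPM. Against these limits, Mertk was at least 2.98-fold, 1.47-fold and 1.04-fold higher in monocytes/macrophages on days 1, 3 and 5. Abca1 stood at 59.5 CPM in monocytes/macrophages and 58.7 CPM in neutrophils on CD45+ day 1, and 168 beside 86.4, 210 beside 74.1 and 299 beside 118 CPM in the CD11b+ pool.

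Dendritic cells held more Axl than monocytes/macrophages in the CD11b+ pool. Their levels were 117 CPM on day 3 (66 cells, counting interval 102 to 133) and 93.6 CPM on day 5 (48 cells, 77.4 to 112), beside 23.6 and 27.6 CPM. They held less of the other 7 members on both days, for instance 14.8 and 19.2 CPM of Mertk and 102 and 59.2 CPM of Msr1. On day 7 of the CD45+ libraries B cells (964 cells) ranged over the members from 1.63 CPM (Mertk) to 37.2 CPM (Abca1), and T cells (95 cells) from 0 (Mertk) to 16.8 CPM (Stab1). The 51 steady state cells left without a class, from clusters led by Cd209a and MHC class II genes or by Fabp4, Igfbp7 and Sparc, held 676 CPM of Cd36, more than any named class of any library. They also held more Lrp1 (130 beside 65.7 CPM) and Axl (124 beside 108 CPM, with overlapping intervals) than monocytes/macrophages, and less of Mertk, Gas6, Stab1, Abca1 and Msr1. Some may not be leukocytes: at Leiden resolution 1.0, clusters with Igfbp7 and Sparc among their leading genes were named endothelial cells and fibroblasts. Cd36 was itself a leading gene of the endothelial cluster.

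**Figure D4:**
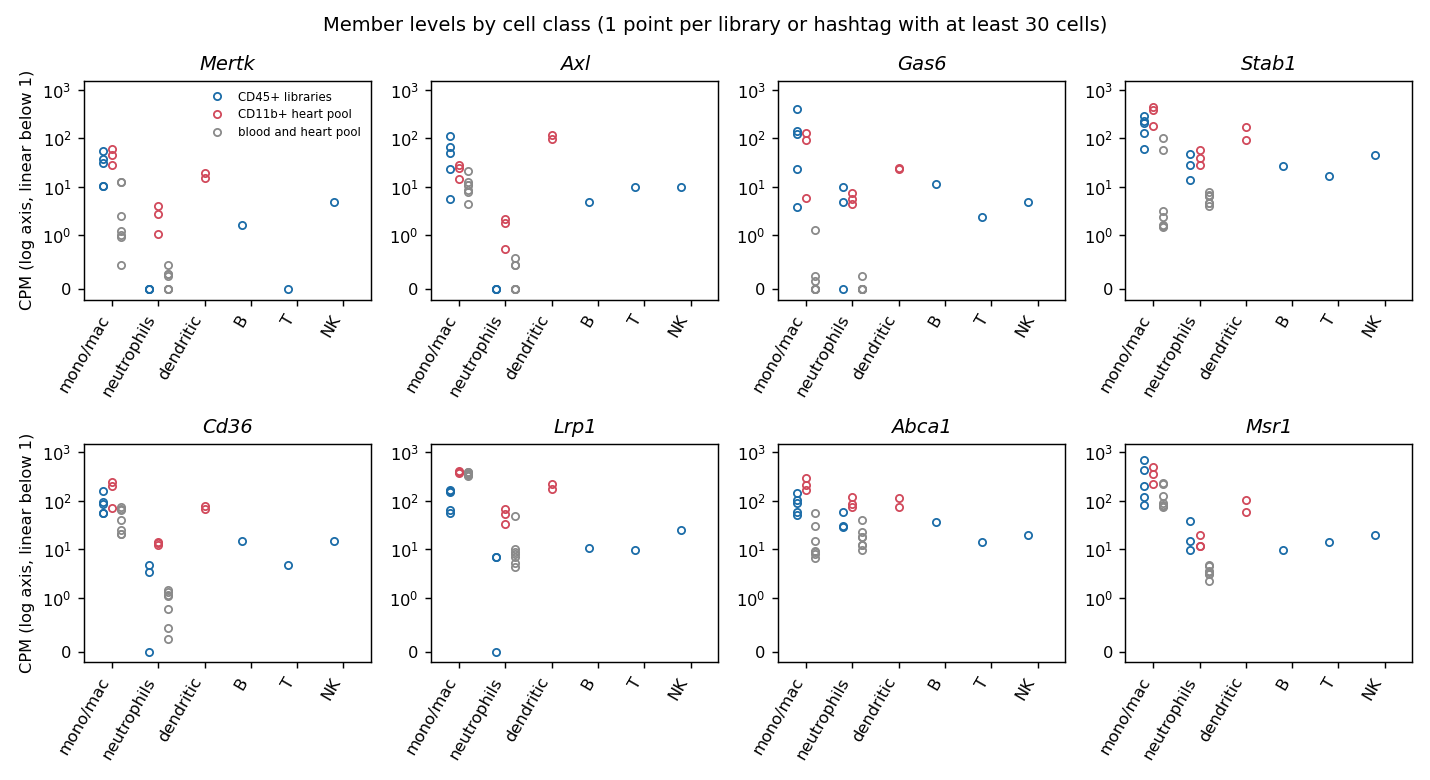
CPM of each member by cell class, on a log axis that is linear below 1 CPM, with 1 point per library or hashtag holding at least 30 cells of the class (blue, CD45+ libraries; red, CD11b+ pool; grey, blood and heart pool). Axl in dendritic cells of the pool (117 and 93.6 CPM) lies above its monocytes/macrophages (14.4 to 27.6 CPM), whereas Msr1 lies above the other classes in every library.

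The share of cells with a UMI was compared after each cell had been thinned to 2000 UMIs, since depth differed (median 22343.5 UMIs per monocyte/macrophage on day 1 of the CD11b+ pool). For Gas6 it was 46.9% of steady state cells (232 of 495, exact binomial 95% interval 42.4 to 51.4), then 0.837%, 2.25%, 14.7% and 23.2% on days 1, 3, 5 and 7. The unthinned shares were 76.9%, 2.85%, 9.65%, 36.5% and 46.4%. On day 1 the Gas6 share was 0.837% (2 of 239, interval 0.101 to 2.99), beside 0 of 190 thinned neutrophils (exact upper bound 1.92%), so it could not be told from background at this depth. In the CD11b+ pool the share was 0.881%, 11.9% and 17.9% on days 1, 3 and 5, beside 1.72%, 0.840% and 1.40% in neutrophils. Msr1 went from 12.5% in the steady state to 68.2%, 50.5%, 29.4% and 20.2%, and through 57.7%, 48.4% and 35.2% in the pool (neutrophils 1.29% to 2.84% in the pool, and 4.74%, 10.4% and 2.50% on days 1, 3 and 5 of the CD45+ libraries). For Mertk the highest shares were 7.47% in the steady state and 10.5% on day 5 of the pool, so most thinned cells showed none. Intervals and limits cover counting error only.

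MSR1 was the 1 member whose protein was also measured, by antibody on the surface of cells of the CD11b+ pool. Monocytes/macrophages had a median of 29.5 antibody UMIs per cell on day 1 (quartiles 23 and 41), 29 on day 3 (22 and 43) and 28 on day 5 (21 and 39). Neutrophils had a median of 20 on each day (quartiles 16 and 24), and dendritic cells 21 on day 3 and 21.5 on day 5. The upper quartile of neutrophils was thus close to the lower quartile of monocytes/macrophages. The antibody medians of monocytes/macrophages lay between 28 and 29.5 over the days, while Msr1 mRNA went from 504 to 362 to 224 CPM in the same cells. These scales are unlike, since antibody is counted per cell and CPM is a share of all mRNA UMIs. Median total UMIs per cell were 22343.5, 28695 and 28386 on days 1, 3 and 5. Uncorrected for depth, Msr1 had 2687 UMIs in 228 cells, 12931 in 1099 and 9516 in 1353. As a share of all antibody UMIs of a cell, MSR1 had medians of 3.99%, 4.17% and 4.18% on days 1, 3 and 5. With 1 hashtag per day there is no test. Clusters differed more than days did: the median was 43 UMIs in the Saa3, Ccl24 and Arg1 cluster, where Msr1 mRNA was highest (568 CPM), 30 in the Selenop and Apoe cluster, where it was lowest (115 CPM), and 23 in the Plac8 and Chil3 cluster (290 CPM). Across cells, antibody and mRNA CPM had Spearman's rho of 0.29, 0.29 and 0.20 on days 1, 3 and 5 (228, 1099 and 1353 cells), and antibody and total UMIs of the cell 0.51, 0.58 and 0.52. These are descriptions over cells that share a library and differ in depth. In the blood and heart pool the antibody did not set the classes apart, with medians of 5 UMIs in monocytes/macrophages of every hashtag and 4 or 5 in neutrophils.

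**Figure D5:**
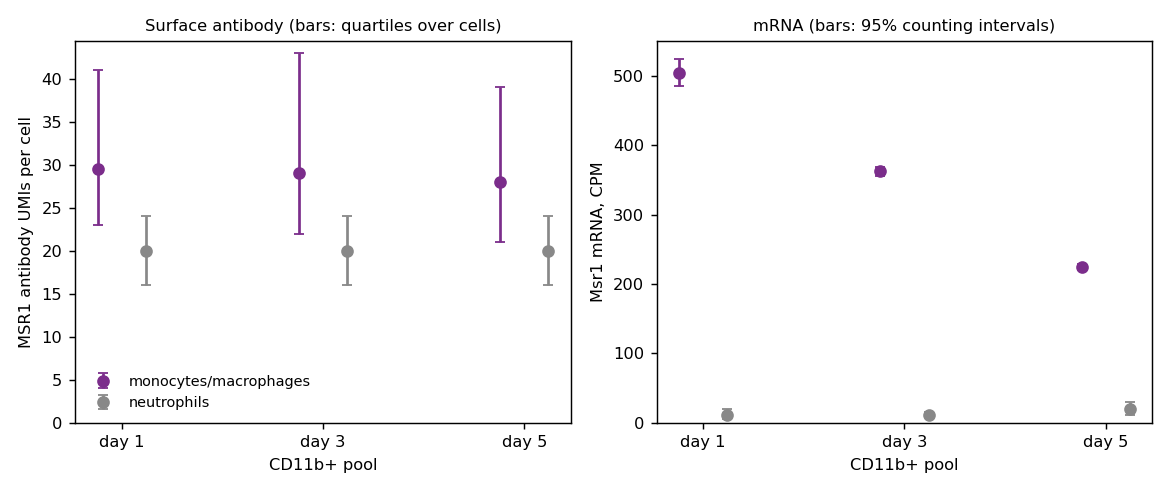
MSR1 surface antibody UMIs per cell (left, median with quartiles over cells) and Msr1 mRNA in CPM (right, with 95% counting intervals) in monocytes/macrophages (purple) and neutrophils (grey) on days 1, 3 and 5 of the CD11b+ pool. Antibody medians in monocytes/macrophages stay between 28 and 29.5 while the mRNA goes from 504 to 224 CPM. The scales are unlike: antibody is counted per cell, and CPM is a share of all mRNA UMIs, whose number per cell differed between days.

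Other genes of dead-cell clearance were read from 6 lists of 105 genes, of which 104 were in the files and 91 were tested. Between days 1 and 5, 11 rose and 11 fell (edgeR, adjusted p under 0.05, beside 4.31% and 5.77% of all genes), and 69 did not pass. Among the other receptors and bridging molecules 2 of 21 rose and 6 fell, with a median log2 change of −0.25. In the list of LXR, PPAR and cholesterol efflux genes 3 of 19 rose and 1 fell (median 0.72), in phagosome digestion 2 of 15 rose (median 0.63), and none of 17 genes of the engulfment machinery passed (median 0.10). Of 11 receptors for find-me signals 3 rose and 2 fell, and of 8 do-not-eat-me and shedding genes 1 rose and 2 fell. Between days 1 and 3, 2 rose and 2 fell, and between days 3 and 5 none passed.

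Pltp, a phospholipid transfer protein and LXR target, rose most, by 3.31 ± 0.19 from day 1 to day 5 (adjusted p = 0.00427). Its levels were 23.1, 79.6 and 325 CPM on days 1, 3 and 5 of the CD45+ libraries and 31.3, 88.5 and 315 CPM in the pool, nearly equal between the experiments. Pld3, a lysosomal nuclease, rose by 2.33 ± 0.29 (adjusted p = 0.0118) and Fabp5, a fatty acid binding protein, by 2.23 ± 0.20 (0.00619). Cd163, the haemoglobin scavenger receptor, fell by 4.02 ± 0.30 on the log2 scale (adjusted p = 0.00467), from 80.5 to 6.86 CPM and from 86.5 to 5.73 CPM. The formyl peptide receptor genes Fpr1 and Fpr2 fell by 3.31 ± 0.40 and by 2.67 ± 0.29 (adjusted p = 0.0106 and 0.00813). Neutrophils also carry formyl peptide receptors, and the summed neutrophil markers were likewise highest on day 1; their part was not tested. By day 3, Pltp (1.40 ± 0.18, adjusted p = 0.0431) and Fabp5 (1.47 ± 0.20, 0.0431) had risen, and Cd163 (−3.71 ± 0.29, 0.0241) and Thbs1, which encodes thrombospondin-1, the CD36 ligand (−1.21 ± 0.155, 0.0431), had fallen. Thbs1 itself stood at 2272, 1099 and 700 CPM in the CD45+ libraries and 3938, 2090 and 1364 CPM in the pool.

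Genes whose course over the 8 monocyte/macrophage sums was most like each member were ranked by the root mean square difference of log2(CPM + 1), centred within each experiment, among 2444 genes. The nearest to Mertk was Mrc1, the mannose receptor (0.175), followed by Tcf4 and Ap1b1. Stab1 lay nearest to Aldh2 (0.11), C3ar1 and Man1a, and Gas6 to Igf1 (0.56), Igfbp4 and Timp2, a looser match over a wider range. Igf1, an insulin-like growth factor, was at 191 CPM in the steady state, at 3.85, 15.2, 161 and 213 CPM on days 1, 3, 5 and 7, and at 7.88, 64.4 and 187 CPM in the pool. Axl was nearest to Rgs10 (0.20), Fosb and Tmem37, Cd36 to Hmgn1 (0.22), Ifi27 and Cebpa, and Lrp1 to Svbp (0.13), Lpl and Epb41l2. For Abca1 these were Cd37 (0.17), Rtcb and Sash1, and for Msr1 they were Alas1 (0.20), Prdx5 and Itgam. No other member was among the 3 nearest by rule, since members were left out of the ranking.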

How the data were processed

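What was deposited are UMI counts, whole and not normalized, of genes by cell, with antibody counts added in the pools. Reads were processed with Cell Ranger (3.0.2 in both pools per the file headers) on mm10, per the submitters' processing notes. Hearts of a day were pooled before loading, per the labels.

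Cells needed 200 or more genes and no more than 10% of UMIs from mitochondria. This left 522 to 1793 cells per CD45+ library (median 3594 to 9463.5 UMIs), 4282 in the CD11b+ pool and 9999 in the blood and heart pool. Hashtags were called by a mixture model, which drops barcodes with several hashtags (6.28% and 12.5%) but leaves doublets within a hashtag. Scrublet marked 2 to 6 barcodes per CD45+ library, which were removed; at that low rate doublets are likely to remain. Cells were clustered in scanpy 1.11.5 (2000 variable genes, 30 components, Leiden resolution 0.5, members left out) and clusters were named from fixed markers. Counts were summed per class, day and experiment (at least 30 cells) and tested with edgeR 4.0.16 (R 4.3.3, TMM, quasi-likelihood, threshold 0.05). DESeq2 1.42.0 was an alternative. P-values set a change between days against how far 2 experiments, each with pooled mice, disagree on such changes. The spread of a gene is drawn towards that of the other genes (median prior degrees of freedom 4.12, beside 2 residual). The difference in level between the experiments is taken out by the experiment term.

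Gene coordinates come from GENCODE M21. The members and lists were chosen with earlier results of these data known. Named beyond the members were the 3 largest and 3 smallest called changes of the lists in a comparison (mean of at least 20 CPM) and, for members that varied by over 1 log2 unit over the CD45+ libraries, the 3 genes of nearest course (mean of at least 50 CPM).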

Additional observations from a re-analysis of the deposited data

Results flagged for a closer look

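For Cd36 and Abca1 the ratio of day 3 to day 1 had opposite signs in the 2 experiments. The log2 ratio of Cd36 was −0.007 in the CD45+ libraries (counting interval −0.30 to 0.29) and 1.542 in the CD11b+ pool (1.39 to 1.70). For Abca1 it was −0.222 (−0.51 to 0.07) and 0.322 (0.22 to 0.42). Both intervals of the CD45+ libraries include 0, so no movement in the opposite direction is shown there. The difference between the experiments was not tested, since each has 1 sum per day. The day 1 sum of the CD45+ libraries carried 19063 CPM of neutrophil markers and that of the pool 2253 CPM, and their part in this was not tested.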

How the results depend on the processing

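The 3 members called between days 1 and 5, Gas6, Stab1 and Msr1, were also called with DESeq2 (5 members), total counts, no filter on low counts (5), cells classed by their own markers, members kept in the clustering, Leiden resolution 1.0, 20% mitochondrial UMIs and hashtags called by ratio. The main fit called 10.1% of all genes. These repeats describe whether the same calls stay, and not whether members are called more often than other genes. Without the experiment term, the only pairing of sums (replicate block), 0 members and 0 genes passed, against 1066 genes. Between days 1 and 3 the count of genes was 100, and 493 with DESeq2, 612 without the filter, 4 with total counts, 0 without the experiment term, 44 by own markers, 4 with members clustered, 37 at 20% mitochondrial UMIs and 2 with hashtags by ratio; members went from 0 to 2 with DESeq2 and without the filter. Between days 1 and 5 it was 1779 without the filter. Between days 3 and 5 it went from 0 to 106 with DESeq2, 107 without the filter, 3 with members clustered, 2 at resolution 1.0 and 1 at 20% mitochondrial UMIs. Leaving out each sum in turn gave 14 (without day 3 of the CD11b+ pool) to 2876 genes (without its day 1) and 0 to 5 members for day 3 against 1, 388 (without CD45+ day 5) to 3737 genes (without day 1 of the pool) and 2 to 7 members for day 5 against 1, and 1 to 1553 genes (without CD45+ day 1) and 0 to 7 members for day 5 against 3. Such a fit has 1 residual degree of freedom and takes the lone sum of a day to vary like the others. The cause of these moves was not tested. For day 5 against day 1, 456 of 1066 calls were higher, and 562 of 885 with total counts.

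Of 360 member log2 changes under alternatives, 301 kept direction and side of the threshold, 44 passed newly, 4 dropped out and 11 changed sign. For day 3 against 1, Mertk became −0.066 by own markers and −0.353 without day 3 of the pool, Cd36 −0.157 without day 1 of the pool, Lrp1 −0.056 without CD45+ day 1, and Abca1 0.067 with total counts, 0.08 without CD45+ day 1 and 0.104 without CD45+ day 3. For day 5 against 1, Lrp1 became −0.009 without CD45+ day 1. For day 5 against 3, Cd36 became −0.028 without CD45+ day 3, and Lrp1 −0.228 without CD45+ day 5 and −0.264 without day 3 of the pool. Over all fits with 1 sum left out, the changes from day 1 to day 3 ran from −0.353 to 0.582 (Mertk), −0.157 to 1.328 (Cd36), −0.056 to 1.159 (Lrp1) and −0.426 to 0.104 (Abca1), the change of Lrp1 from day 1 to day 5 from −0.009 to 1.193, and those from day 3 to day 5 from −0.028 to 0.911 (Cd36) and −0.264 to 0.373 (Lrp1). Thinning to 1000 UMIs moved 55 of 64 shares beyond their interval. A lower depth lowers such shares by itself, so they can be compared only at the same depth. The number of members highest in monocytes/macrophages was 4 and became 5, with Axl, by own markers, with members clustered, with hashtags by ratio and in sums of at least 100 cells.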

Other observations

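In the blood and heart pool, whose hashtags no label tied to a condition, the monocytes/macrophages of hashtags 6 and 7 held other levels than those of hashtags 1 to 5 for several members. No label stands behind this split, and no test was made. Mertk was at 12.57 and 12.55 CPM in hashtags 6 and 7 and between 0.440 and 2.42 CPM in the other 5. Stab1 was at 55.9 and 103 CPM, against 1.44 to 3.08 CPM, and Abca1 at 30.0 and 56.8 CPM, against 6.45 to 14.7 CPM. Msr1 was at 222 and 238 CPM, against 75.7 to 126 CPM. Cd36 was at 21.0 and 25.3 CPM in hashtags 6 and 7 and ran from 20.5 CPM (hashtag 1) to 74.7 CPM (hashtag 2) in the others, and Lrp1 lay between 327 and 401 CPM in all 7. Gas6 had at most 6 UMIs in any hashtag, a level of at most 1.28 CPM. Its receptor gene Axl did not split that way. It was at 21.0 and 10.6 CPM in hashtags 6 and 7 and between 4.38 and 12.35 CPM in the others.

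In neutrophils of hashtags 1 to 4, Abca1 was at 12.0, 17.6, 9.84 and 17.7 CPM, above the monocytes/macrophages of the same hashtags at 8.58, 6.45, 9.11 and 8.15 CPM. Stab1 was likewise higher in neutrophils in hashtags 1 to 5, at 4.57 to 6.80 CPM against 1.44 to 3.08 CPM.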
